A study of Homo sapiens with 48 samples.

Results

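DLL4, JAG1, NOTCH1, NOTCH2, NOTCH3, HES1, HEY1, HEY2, HEYL and NRARP are 10 of the 29744 genes in the expression table: ligands, receptors and direct target genes of the Notch pathway. They were chosen by the DLL4 values of these same libraries: DLL4 was higher in fibroblasts with GLIS3 knocked out and lower in fibroblasts with GLIS3 activated. The difference in DLL4 between those groups is therefore described below without a test. The other genes that passed a filter on low counts, and the change of DLL4 with time, were tested. The time tests of DLL4 use libraries that also served to choose it, so they are not independent of that choice.

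Bulk RNA-seq was made from human IL11mNG fibroblasts, a telomerase-immortalized skin fibroblast line (ATCC CRL-4001) with an mNeonGreen reporter knocked into IL11. All libraries came from this line, from clones sorted for the reporter before a lentivirus with Cas9 or with dCas9–VP64 was added. Whether both arms came from the same clone is not stated. The cells sequenced were then a drug-selected bulk population carrying a second lentivirus with the guide. In the CRISPRko arm, H47_Ctrl cells had Cas9 and a non-targeting guide and H47_KO cells had Cas9 and a GLIS3 guide. In the CRISPRa arm, VP64_Ctrl and VP64_A cells had dCas9 fused to the VP64 activation domain, with a non-targeting guide or a guide that recruits it to GLIS3. Cells grew in DMEM with 10% FBS and received TGFβ and IL-1β, each at 10 ng/ml, for 0, 6, 12 or 24 h, with 3 libraries in each of the 16 conditions and 48 in all. The labels do not tie libraries to cultures, while the study describes its cell culture experiments in general as made with independent biological replicates. Each p-value measures the spread between these libraries. The cell line label gives Cas9 and a GLIS3 knockout for every sample, controls included, and no label names a sequencing batch. Titles and descriptions of the CRISPRa samples call opposite groups the control. Groups here follow the descriptions, which also name the table columns, and every direction in the CRISPRa arm turns around if the titles are the ones that hold.

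Notch signaling passes between touching cells: a ligand of the Delta or Jagged family on one cell binds a Notch receptor on its neighbor. The receptor is then cut, first outside the membrane by an ADAM protease and then within it by γ-secretase, and its freed intracellular domain joins the DNA-binding protein RBPJ and Mastermind to switch on targets such as the HES and HEY repressors and NRARP, which feeds back on the pathway. In connective tissue and vessels the pathway is known for its part in smooth muscle, pericyte and endothelial cell fate, and DLL4 is best known from the sprouting tips of blood vessels.

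In these fibroblasts NOTCH2 made up nearly all receptor mRNA, DLL4 was most of the ligand mRNA at 6 and 12 h in 3 of the 4 groups, and the target genes HES1, HEY2, HEYL and NRARP were at or close to 0. DLL4 lies at chr15:40929340-40939073 on the plus strand and HES1 at chr3:194136148-194138732 on the plus strand (GRCh38, GENCODE annotation). The 300 bases from 250 before to 50 after the start of these 2 genes (RefSeq, GRCh38.p14) are given 5′ to 3′, because DLL4 had the largest changes of the set and HES1, the textbook target, had almost no counts. Capitals mark each TGGGAA, the core letters of the RBPJ recognition sequence.
DLL4, chr15:40929090-40929389, plus strand: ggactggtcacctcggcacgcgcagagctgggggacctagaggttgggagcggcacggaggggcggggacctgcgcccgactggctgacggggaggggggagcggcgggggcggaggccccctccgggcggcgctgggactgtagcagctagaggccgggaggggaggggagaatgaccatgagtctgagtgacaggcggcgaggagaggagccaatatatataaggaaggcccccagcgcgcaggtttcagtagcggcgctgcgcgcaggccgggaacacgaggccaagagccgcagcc
HES1, chr3:194135898-194136197, plus strand: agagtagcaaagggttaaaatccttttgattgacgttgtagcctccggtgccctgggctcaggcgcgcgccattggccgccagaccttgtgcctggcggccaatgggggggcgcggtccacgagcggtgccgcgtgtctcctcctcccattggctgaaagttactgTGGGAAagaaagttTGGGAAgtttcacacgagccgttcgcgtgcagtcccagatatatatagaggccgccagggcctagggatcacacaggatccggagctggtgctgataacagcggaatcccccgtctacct
The HES1 window held TGGGAA at -84 and -70 from the start, both on the plus strand, and the DLL4 window held none on either strand. RefSeq windows were matched for 9 of the 10 genes, all but HEY1. TGGGAA was in 3 of the 9 (HES1, HEY2 and HEYL), while 24.0% of 35116 windows of the same length in the table held it. The letters TGGGGGGT (the GLIS motif searched), TGANTCA (AP-1) and CACGTG (E-box), each on both strands, were in 0 of the 9 windows and in 1.47%, 7.71% and 7.26% of all windows. The GC content of the 9 windows ranged from 59.0% in HES1 to 79.0% in HEY2, with 70.7% in DLL4, beside a median of 58.7% over all windows. These matches describe letters only.

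Library totals ranged from 2321990 to 10661000 estimated counts. The filter on low counts kept 6 of the 10 genes among CRISPRko libraries (DLL4, JAG1, NOTCH1, NOTCH2, NOTCH3 and HEY1) and 4 among CRISPRa libraries (DLL4, JAG1, NOTCH1 and NOTCH2). Levels are given as CPM, counts scaled to library size with TMM factors set over all 48 libraries. Shares of a gene among others use TPM, which is per transcript length. Where counts or CPM of different genes stand side by side, they are not corrected for length. GLIS3, the targeted gene, followed the group names used here: 0.144 to 1.64 CPM in the 12 H47_KO libraries beside 1.45 to 6.44 in H47_Ctrl (averaged log2 fold change -1.68), and 16.4 to 36.9 CPM in VP64_A beside 1.93 to 6.36 in VP64_Ctrl. All 8 fibroblast markers examined were detected, with a summed level of 11286 to 32018 TPM. Replicate 3 of H47_KO 0 h, of H47_KO 24 h and of VP64_Ctrl 0 h stood apart: their TMM factors were 1.52, 1.52 and 1.86, and their 50 most abundant genes held 30.7%, 31.4% and 23.1% of counts beside 32.6% to 46.4% in the other libraries.

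The ligand DLL4 went from 0 to 25 counts per library before the cytokines to its highest mean at 12 h in 3 of the 4 groups of cells, all but VP64_A, and was lower again at 24 h. In H47_Ctrl the 3 libraries held 0.408, 1.13 and 0.810 CPM at 0 h, 3.15, 3.44 and 4.01 at 6 h, 12.7, 15.6 and 10.5 at 12 h, and 1.88, 0.461 and 0.234 at 24 h. In H47_KO they held 4.38, 3.46 and 2.22 CPM at 0 h, 13.997, 10.7 and 13.5 at 6 h, 27.02, 25.3 and 21.5 at 12 h, and 4.01, 10.96 and 3.70 at 24 h. At each of the 4 times every H47_KO library was above every H47_Ctrl library, and the H47_KO libraries at 6 h overlapped the H47_Ctrl libraries at 12 h. Libraries of the 2 groups did not overlap, in either direction, for 17.7%, 14.9%, 15.3% and 13.4% of all genes at these 4 times. In VP64_Ctrl the values were 0.252, 0.839 and 0.148 CPM at 0 h, 6.81, 5.60 and 4.70 at 6 h, 12.8, 13.3 and 14.4 at 12 h, and 3.55, 6.05 and 3.05 at 24 h. In VP64_A they were 0, 0 and 0.998 CPM at 0 h, 1.68, 1.498 and 1.82 at 6 h, 0, 1.56 and 1.85 at 12 h, and 0.518, 1.02 and 0.313 at 24 h. The CRISPRa groups overlapped at 0 h and were apart at 6, 12 and 24 h, with VP64_A lower. The shares of all genes without overlap were 26.3%, 18.5%, 16.8% and 23.3% at these 4 times. In bulk RNA fewer cells that express a gene and less RNA per cell cannot be told apart.

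**Figure D1:**
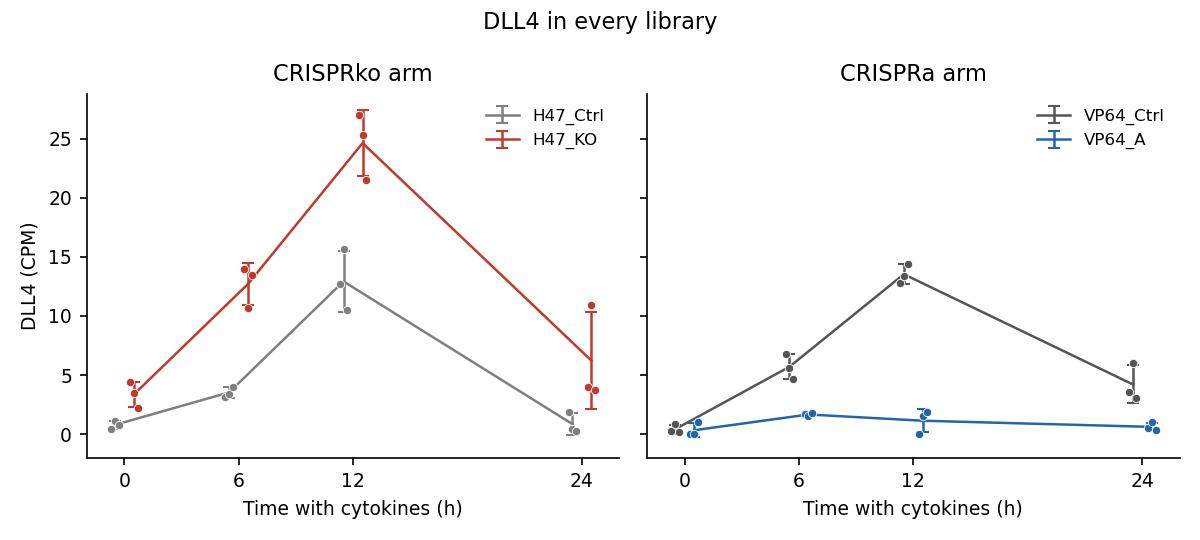
DLL4 in CPM (vertical axis) against hours with TGFβ and IL-1β (horizontal axis) in the CRISPRko arm (left) and the CRISPRa arm (right); points are libraries, lines join the means of 3 libraries and bars are SD. The H47_KO points lie above the H47_Ctrl points at every time with means of 24.6 and 12.9 CPM at 12 h, and the VP64_A points stay under 2 CPM while VP64_Ctrl reaches a mean of 13.5.

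As a description, since these contrasts chose the genes, DLL4 in H47_KO over H47_Ctrl came to a ratio of summed counts, scaled for depth, of 4.31 at 0 h (95% counting interval 2.36 to 8.53), 3.75 at 6 h (2.68 to 5.31), 1.93 at 12 h (1.56 to 2.40) and 4.72 at 24 h (2.60 to 9.39). The ratio was thus lowest when DLL4 was highest. VP64_Ctrl over VP64_A came to 1.95 at 0 h (0.704 to 6.19), 3.71 at 6 h (2.28 to 6.26), 9.74 at 12 h (6.19 to 16.1) and 7.11 at 24 h (3.27 to 18.4). Here the ratio was highest at 12 h, where VP64_A showed no peak. The intervals cover counting error only, and at 0 h they rest on 13 counts in all 3 H47_Ctrl libraries, 14 in VP64_Ctrl and 6 in VP64_A, and at 24 h on 12 in H47_Ctrl, 10 of them in replicate 1, and 7 in VP64_A. Without that replicate 1 the fitted log2 difference of H47_KO from H47_Ctrl at 24 h was 4.07, beside 2.48 with it. Averaged over the 4 times, the fitted log2 difference was 1.83 (SE 0.219) for H47_KO against H47_Ctrl and -2.19 (SE 0.353) for VP64_A against VP64_Ctrl.

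Ordered by mean level, H47_KO at 12 h came first of the 16 conditions (24.6 ± 2.81 CPM, SD, n = 3) and did not overlap the next. VP64_Ctrl at 12 h (13.5 ± 0.827), H47_Ctrl at 12 h (12.9 ± 2.59) and H47_KO at 6 h (12.7 ± 1.79) followed, with libraries that overlapped from each to the next. H47_KO at 24 h (6.22 ± 4.11), VP64_Ctrl at 6 h (5.70 ± 1.06), VP64_Ctrl at 24 h (4.22 ± 1.61), H47_Ctrl at 6 h (3.53 ± 0.437) and H47_KO at 0 h (3.35 ± 1.08) formed a chain in which neighbors also overlapped. A gap without overlap then separated H47_KO at 0 h from VP64_A at 6 h (1.67 ± 0.161). VP64_A at 12 h (1.14 ± 0.995), H47_Ctrl at 24 h (0.860 ± 0.895), H47_Ctrl at 0 h (0.782 ± 0.360), VP64_A at 24 h (0.617 ± 0.363), VP64_Ctrl at 0 h (0.413 ± 0.373) and VP64_A at 0 h (0.333 ± 0.576) made up the rest and overlapped from each to the next. The arms differ in the Cas9 protein and the virus, and may differ in the clone, so levels set across them are given side by side only.

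The rise of DLL4 with time was tested with edgeR's quasi-likelihood test, with Benjamini-Hochberg adjustment over all genes of the arm. The libraries in these tests are among those by which DLL4 was chosen. The tests are thus not independent of that choice, most of all in VP64_Ctrl, whose libraries stood apart from VP64_A at 6, 12 and 24 h. In H47_Ctrl DLL4 rose by a log2 fold change of 2.15 at 6 h (SE 0.517, adjusted p = 0.00284) and 4.07 at 12 h (SE 0.471, adjusted p = 4.50e-08). In H47_KO it rose by 1.91 (adjusted p = 2.84e-04) and 2.87 (adjusted p = 1.34e-07), from a higher start. In VP64_Ctrl it rose by 3.65 at 6 h (adjusted p = 3.07e-05), 4.87 at 12 h (adjusted p = 1.06e-07) and 3.14 at 24 h (adjusted p = 3.61e-04). Without replicate 2 of VP64_Ctrl 0 h, which held 10 of the 14 counts at that time, these were 4.65, 5.85 and 4.11, and on the log2(TPM + 1) scale, which understates changes of low genes, 1.31, 2.37 and 1.26, all of them still called. At 24 h the fitted change was 0.40 in H47_Ctrl (adjusted p = 0.832) and 0.78 in H47_KO (adjusted p = 0.174), which did not pass. The 24 h mean was 6.66% of the 12 h mean in H47_Ctrl, 25.3% in H47_KO and 31.2% in VP64_Ctrl. In VP64_A the test called DLL4 at 6 h (2.64, SE 0.806, adjusted p = 0.0202) and at 12 h (2.32, SE 0.819, adjusted p = 0.0427), against a start of 0, 0 and 6 counts. Both VP64_A calls were lost in 4 of 6 fits that left out one of the compared libraries. Without replicate 1 or 2 of VP64_A 0 h, the pair at 0 counts, the 6 h value was 1.85 (adjusted p = 0.127) or 2.08 (adjusted p = 0.0920) and the 12 h value 1.54 (adjusted p = 0.229) or 1.75 (adjusted p = 0.155). The other losses were without replicate 1 (2.63, adjusted p = 0.0503) or 3 (2.58, adjusted p = 0.0501) of 6 h, and without replicate 2 (2.06, adjusted p = 0.179) or 3 (2.04, adjusted p = 0.139) of 12 h. Without replicate 3 of VP64_A 0 h, which held all 6 counts, the values were 6.31 and 5.98. In H47_Ctrl the 6 h call was lost on the log2(TPM + 1) scale (0.93, adjusted p = 0.0614, limma).

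Among the ligands DLL4 was not alone before the cytokines. JAG1, the other member ligand and a Jagged protein known for signaling to vascular smooth muscle, held 1 to 61 counts in every library (median 0.521 TPM beside 1.49 for DLL4). Of the Delta and Jagged ligands outside the set, DLL1 held 167 counts over all 48 libraries, JAG2 held 22 and DLL3 held 1. As a share of the summed TPM of these 5 ligands, DLL4 held a median of 24.0% in H47_Ctrl at 0 h, 62.1% at 6 h, 87.6% at 12 h and 30.05% at 24 h. In H47_KO the medians were 57.3%, 87.9%, 91.1% and 69.6%. The H47_KO libraries ranged from 54.9% to 64.3% at 0 h and the H47_Ctrl libraries from 19.4% to 31.9%. In VP64_Ctrl the medians were 10.7%, 72.3%, 90.3% and 54.8%, and in VP64_A they were 0%, 39.7%, 48.002% and 19.6%. By median DLL4 thus made up over 50% of ligand mRNA at 6 and 12 h in each group but VP64_A, where one 12 h library still held none. The summed ligand level went from 1.46 ± 0.342 to 6.46 ± 1.36 TPM between 0 and 12 h in H47_Ctrl, from 2.67 ± 0.0302 to 10.7 ± 0.779 in H47_KO, from 1.45 ± 0.427 to 5.88 ± 1.07 in VP64_Ctrl and from 0.827 ± 0.283 to 1.02 ± 0.536 in VP64_A (SD, n = 3). These shares use DLL4 itself and are given as a description.

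**Figure D2:**
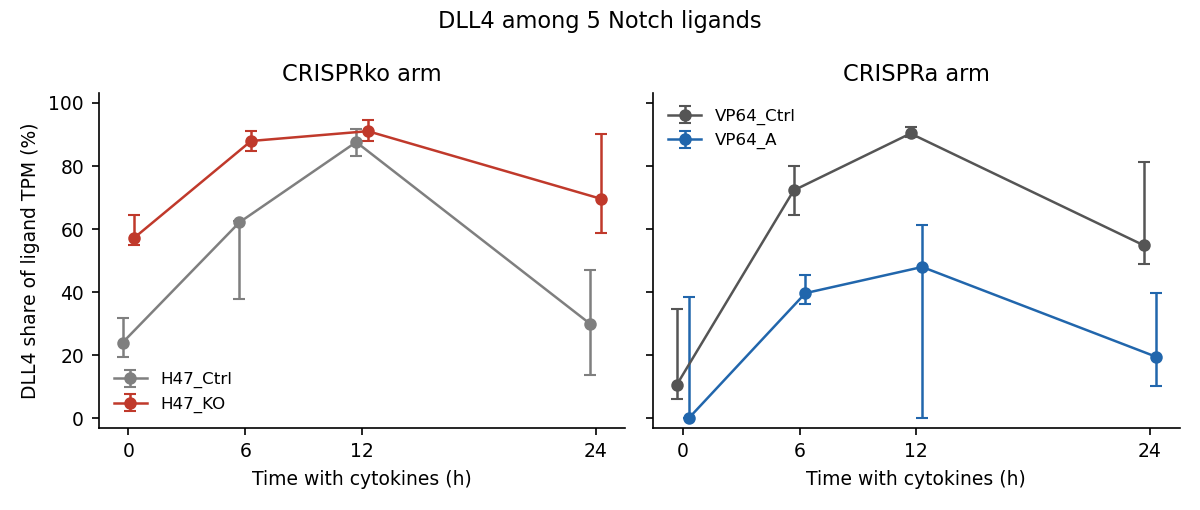
DLL4 as a percentage of the summed TPM of DLL4, JAG1, DLL1, DLL3 and JAG2 (vertical axis) against hours with cytokines (horizontal axis) in the CRISPRko arm (left) and the CRISPRa arm (right); points are medians of 3 libraries and bars reach from the lowest to the highest. The share is at or near 90% at 12 h in H47_Ctrl, H47_KO and VP64_Ctrl and 48.002% in VP64_A.

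JAG1 did not follow DLL4. In VP64_Ctrl it held 2.69, 1.85 and 3.26 CPM at 0 h and 0.394, 0.901 and 0.283 at 12 h, 8 counts in all, and the 2 times did not overlap, as for 39.9% of all genes. It fell by 2.14 on the log2 scale between those times (SE 0.560, adjusted p = 0.00434, edgeR), and this was the only JAG1 call in any time course. It returned to 2.81, 2.55 and 3.69 CPM at 24 h. In VP64_A at 12 h JAG1 held 1.92, 2.05 and 1.62 CPM, above all 3 VP64_Ctrl libraries, where 16.8% of all genes did not overlap. Neither the difference at 12 h (log2 fold change 1.72, adjusted p = 0.121) nor the difference in response from 0 h (2.46, adjusted p = 0.186) passed. In H47_Ctrl and H47_KO the 24 libraries ranged from 0.325 to 7.73 CPM with no call, and JAG1 in H47_Ctrl at 24 h had a log2 fold change of -0.96 from 0 h (adjusted p = 0.500).

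NOTCH2, the receptor gene with the most mRNA here, lies at chr1:119911553-120100779 on the minus strand. It held 91.5% to 98.5% of the summed NOTCH1, NOTCH2 and NOTCH3 TPM (median 97.0%), and receptor protein was not measured. It rose at 6 h in all 4 groups. The H47_Ctrl libraries held 119, 123 and 143 CPM at 0 h, 297, 266 and 367 at 6 h, 191, 186 and 260 at 12 h, and 112, 143 and 139 at 24 h. The H47_KO libraries held 115, 131 and 156 CPM at 0 h, 344, 390 and 281 at 6 h, 201, 159 and 204 at 12 h, and 113, 158 and 187 at 24 h. The control and knockout courses ran together, and the libraries at 24 h overlapped those at 0 h. VP64_Ctrl held 159, 150 and 262 CPM at 0 h, 267, 264 and 383 at 6 h, 191, 125 and 155 at 12 h, and 155, 161 and 187 at 24 h. VP64_A held 108, 146 and 138 CPM at 0 h, 214, 260 and 268 at 6 h, 151, 113 and 166 at 12 h, and 173, 152 and 191 at 24 h. In each group the 3 libraries at 6 h lay above the 3 at 0 h, and 6 h and 0 h did not overlap for 31.3%, 39.5%, 40.7% and 35% of all genes in H47_Ctrl, H47_KO, VP64_Ctrl and VP64_A.

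By edgeR the change of NOTCH2 at 6 h was 1.26 in H47_Ctrl (SE 0.191, adjusted p = 6.83e-06), 1.29 in H47_KO (SE 0.191, adjusted p = 3.81e-06), 0.66 in VP64_Ctrl (SE 0.206, adjusted p = 0.0151) and 0.92 in VP64_A (SE 0.207, adjusted p = 0.00158), all log2. NOTCH2 was also called at 12 h in H47_Ctrl (0.74, adjusted p = 0.00467). In H47_KO at 12 h its value of 0.46 missed the threshold (adjusted p = 0.0683) and passed it without the libraries of TMM factor over 1.5 (0.58, adjusted p = 0.0272), a step chosen after the values were seen. The VP64_Ctrl call was lost without replicate 1 (0.56, adjusted p = 0.0698) or 2 (0.53, adjusted p = 0.0794) of 0 h or replicate 3 of 6 h (0.47, adjusted p = 0.122) and, on the log2(TPM + 0.1) scale, became 0.15 (adjusted p = 0.635, limma). The H47_Ctrl 12 h call was lost without replicate 3 of 12 h (0.57, adjusted p = 0.0542) and on both TPM scales (0.55 and 0.57, adjusted p = 0.264 and 0.275, limma), as was the VP64_A 6 h call on both (0.75 and 0.78, adjusted p = 0.0647 and 0.0680). Salmon must split reads between NOTCH2 and its near-identical partial copies, and its NOTCH2 estimates were not whole numbers in any of the 48 libraries. The NOTCH2NL entry held 2534.4 counts beside 47671.9 for NOTCH2. How many reads went to the wrong gene was not measured, so the NOTCH2 level is uncertain. Between groups edgeR with all libraries did not call NOTCH2: its value averaged over time was 0.05 (SE 0.0945, adjusted p = 0.841) for the knockout and -0.23 (SE 0.103, adjusted p = 0.122) for activation. The activation contrast was called by limma on average (-0.40, adjusted p = 0.0370, on log2(TPM + 1), and -0.41, adjusted p = 0.0413, on log2(TPM + 0.1)) and at 0 h (-0.84, adjusted p = 0.0392, on log2(TPM + 1)). At 0 h edgeR gave -0.54 (adjusted p = 0.0934) with all libraries and -0.69 (adjusted p = 0.0407) without replicate 2 of VP64_Ctrl 0 h.

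NOTCH1, at chr9:136494433-136546048 on the minus strand, was the only receptor that edgeR with all libraries called between groups. It encodes the founding receptor of the family, here at 6 to 115 counts per library. At 0 h VP64_Ctrl held 9.66, 6.55 and 15.1 CPM and VP64_A held 3.57, 4.86 and 4.16. These did not overlap, as for 26.3% of all genes. The log2 fold change was -1.30 at 0 h (SE 0.330, adjusted p = 0.00967, edgeR) and -0.71 averaged over the 4 times (SE 0.188, adjusted p = 0.00743). Without replicate 3 of VP64_Ctrl 0 h, one of the libraries that stood apart, the 0 h value was -0.94 (adjusted p = 0.122) and the average was -0.62 (adjusted p = 0.0154). Without replicate 1 of VP64_A 0 h the 0 h value was -1.18 (adjusted p = 0.0662). NOTCH1 fell with time in VP64_Ctrl, by 1.09 on the log2 scale at 6 h (adjusted p = 0.0209) and 1.35 at 12 h (adjusted p = 0.00398). The 12 h libraries held 5.72, 3.24 and 2.83 CPM. Without the same replicate 3 the 6 h value was -0.75 (adjusted p = 0.138) and the 12 h value -1.02 (adjusted p = 0.0400), and the 6 h call was also lost without replicate 1 (-1.09, adjusted p = 0.0678) or 2 (-0.93, adjusted p = 0.105) of 6 h. In VP64_A NOTCH1 held 2.30 to 6.50 CPM over the whole course with no call, and the difference in response at 6 h was 1.18 (adjusted p = 0.466). In H47_KO it fell at 12 h to 3.58, 2.69 and 4.20 CPM from 6.30, 9.09 and 6.91, a log2 change of -1.13 (adjusted p = 0.0450) that was lost in all 6 fits that left out a compared library (-1.27 to -0.96). Between H47_KO and H47_Ctrl NOTCH1 was not called. Its average there was -0.30 (SE 0.218, adjusted p = 0.547, edgeR), of the same sign as for activation.

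**Figure D3:**
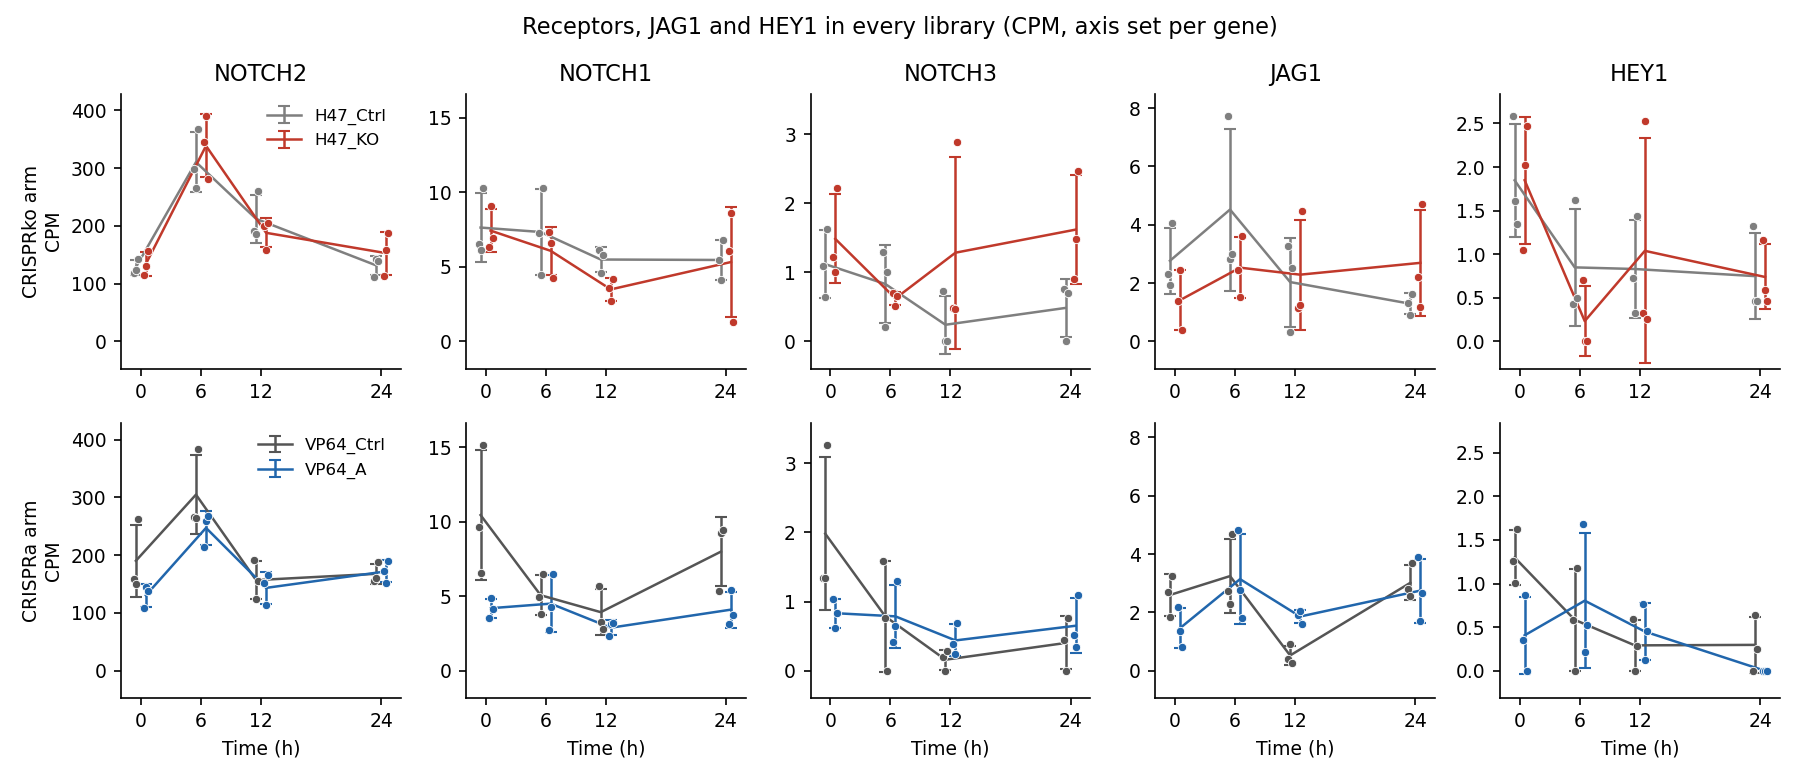
NOTCH2, NOTCH1, NOTCH3, JAG1 and HEY1 in CPM (vertical axes, set per gene and shared between arms) against hours with cytokines (horizontal axes), CRISPRko arm above and CRISPRa arm below; points are libraries, lines join means of 3 libraries and bars are SD. NOTCH2 peaks at 6 h in all 4 groups at means of 247 to 338 CPM, and the other genes stay under 16 CPM.

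NOTCH3, the receptor known from pericytes and vascular smooth muscle and at chr19:15159038-15200995, held 0 to 32 counts. It was tested in the CRISPRko arm, where no contrast called it, and its highest count was in replicate 3 of H47_KO 24 h, a library that stood apart. H47_KO at 24 h held 0.905, 1.48 and 2.47 CPM and H47_Ctrl held 0.754, 0 and 0.701, which did not overlap (log2 fold change 1.51, SE 0.817, adjusted p = 0.539, edgeR). Of all genes 13.4% did not overlap in this comparison. In the CRISPRa arm, where it did not pass the filter, VP64_Ctrl held 16, 16 and 22 counts at 0 h and 1, 0 and 1 at 12 h, and VP64_A held 12, 5 and 5 and then 1, 2 and 3. Without the filter edgeR called the VP64_Ctrl difference (-3.56, adjusted p = 0.00421). NOTCH4, the remaining receptor of the family, had 27 counts in all libraries and was not tested.

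The target genes gave almost no signal. HES1 held at most 1 count in a library, 10 in all, and 0 in 38 of the 48 libraries. HEY2 held 3 counts in 2 libraries, HEYL held 13 counts, all in replicate 3 of H47_KO 24 h, and NRARP was at 0 in all 48. A limit of 3 counts corresponds to 0.231 to 1.76 CPM in single libraries (median 0.599) and to 0.0118 unscaled CPM over the 254189530 counts of all libraries. Lower levels of HES1, HEY2, HEYL and NRARP could not be detected at this depth. Whether the annotation or processing behind the deposited counts lowered HES1 or NRARP was not tested. No comparison of them between groups or times was possible. ACTB and GAPDH held 56649 to 235900 and 41343 to 253369 counts in the same libraries. Of the HES genes outside the set, HES4 held 207 counts, HES7 held 9, HES2 held 1 and HES5 held 0, and none passed the filter.

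HEY1, on chromosome 8, was the one member target with counts in most libraries, 0 to 19 and 220 in all. H47_Ctrl held 19, 10 and 5 counts at 0 h and at most 8 in any library thereafter. H47_KO held 6, 14 and 19 counts at 0 h and 2, 0 and 0 at 6 h, a log2 change of -2.81 (SE 1.05, adjusted p = 0.0482, edgeR). Later H47_KO libraries held 2, 16 and 1 counts at 12 h and 9, 2 and 6 at 24 h, and one at 12 h (2.53 CPM) lay above every 0 h library. The 6 h call was lost in 4 of 6 fits that left out a compared library and under 5 of 7 other settings, with -2.76 (adjusted p = 0.0861) or -2.51 (adjusted p = 0.128) without replicate 2 or 3 of 0 h and -2.38 (adjusted p = 0.157) or -2.18 (adjusted p = 0.179) without replicate 2 or 3 of 6 h. VP64_Ctrl held 15, 12 and 11 counts at 0 h and at most 4 later. VP64_A held 4, 7 and 0 at 0 h and 0 in all 3 libraries at 24 h, and HEY1 was not tested in the CRISPRa arm. The mean HEY1 level (CPM) was thus highest before the cytokines in the 3 groups other than VP64_A, at no more than 19 counts in any library.

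Counted over the set, the cytokine response was called in 1 to 3 tested genes per group at 6 and 12 h. These counts include DLL4, whose time tests are not independent of its choice. In H47_Ctrl 2 of 6 tested genes were called at 6 h, 2 at 12 h and 0 at 24 h, where 15.9%, 19.6% and 10.3% of all 10962 genes were called. In H47_KO the counts were 3, 2 and 0 of 6 beside 23.9%, 27.4% and 15.8%. In VP64_Ctrl they were 3, 3 and 1 of 4 beside 28.8%, 26.8% and 16% of 10980 genes, and in VP64_A 2, 1 and 0 of 4 beside 17.4%, 19.7% and 13.6%. At 24 h edgeR gave 0 members at an unadjusted p under 0.05 in H47_Ctrl, 1 in H47_KO and 0 in VP64_A. Over the 3 times DESeq2 gave 4, 4, 7 and 3 calls in H47_Ctrl, H47_KO, VP64_Ctrl and VP64_A, where edgeR gave 4, 5, 7 and 3. The calls at 6 h were DLL4 and NOTCH2 in each group, with HEY1 added in H47_KO and NOTCH1 in VP64_Ctrl.

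**Figure D4:**
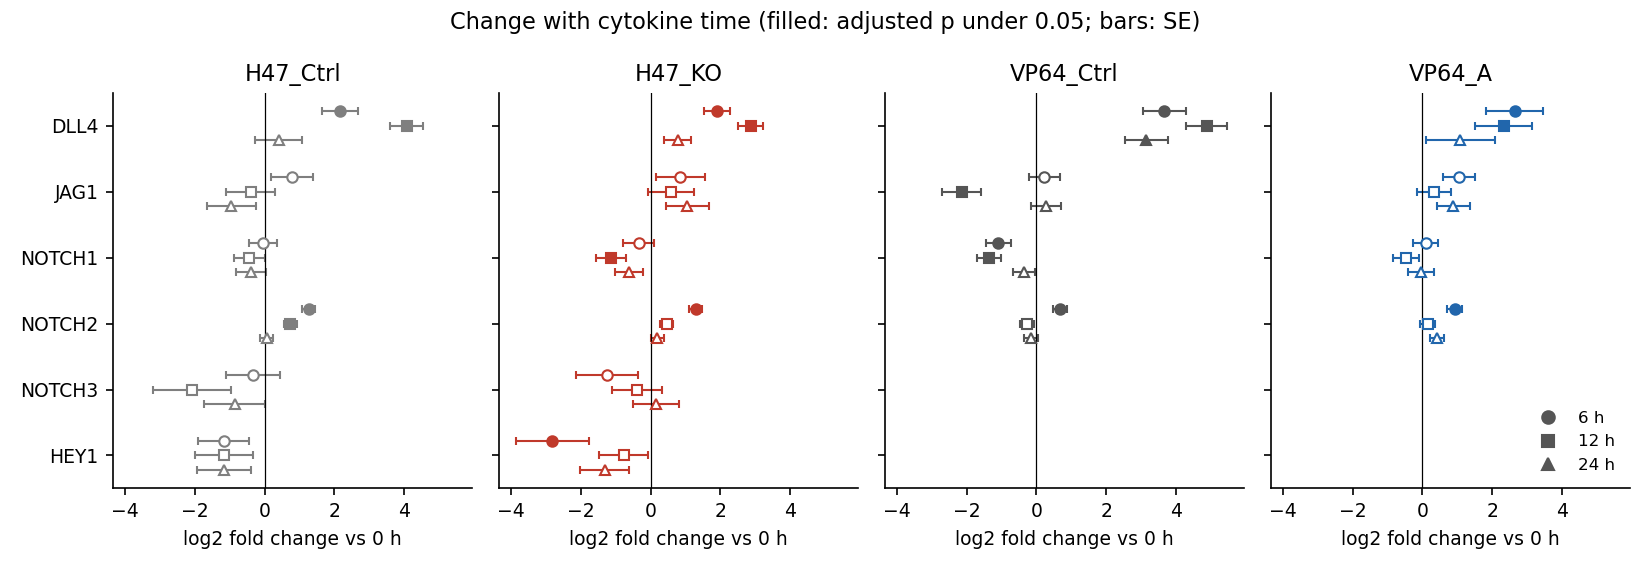
Log2 fold change against 0 h (horizontal axis) of the tested genes (vertical axis) in H47_Ctrl, H47_KO, VP64_Ctrl and VP64_A (panels); circles, squares and triangles are 6, 12 and 24 h, bars are SE, and filled symbols have an adjusted p under 0.05 by edgeR. DLL4 is the highest point of each panel, 4.07 in H47_Ctrl and 4.87 in VP64_Ctrl at 12 h, and NOTCH3 and HEY1 were not tested in the CRISPRa arm.

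Between H47_KO and H47_Ctrl edgeR called 0 of the 5 tested genes other than DLL4 at any time or on average, and none had an unadjusted p under 0.05. DESeq2 also called 0. The shares of all genes called were 0.301%, 0.319%, 0.0821% and 0.21% at 0, 6, 12 and 24 h and 3.07% on average. The median log2 fold change of the 5 genes averaged over time was -0.15, beside -0.01 for all genes. Between VP64_A and VP64_Ctrl 1 of 3 genes other than DLL4 (NOTCH1) was called at 0 h, where 9.41% of all genes were called, and 1 of 3 (NOTCH1) on average, where 18.4% were. The counts at 6, 12 and 24 h were 0 of 3, with 0, 1 and 1 at an unadjusted p under 0.05, beside 3.76%, 4.31% and 4.13%. DESeq2 called 2 over these 5 contrasts, as edgeR did. No difference in cytokine response was called by edgeR or by DESeq2 in the 5 and 3 genes tested in the arms, of which 1 had an unadjusted p under 0.05 for the knockout (JAG1 at 24 h) and 2 for activation (NOTCH1 at 6 h and JAG1 at 12 h). Across all genes these contrasts called 0.00912%, 0% and 0% at 6, 12 and 24 h for the knockout and 0.0911%, 0.264% and 0.209% for activation.

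Beyond the set, 56 other genes of the pathway were followed, of which 38 passed the filter among CRISPRko libraries and 36 among CRISPRa libraries. In the knockout NCSTN alone was called on average, 1 of 38 genes or 2.63%, beside 3.07% of all genes, so the share of the pathway list was near the background. NCSTN, nicastrin, is the subunit of γ-secretase that takes in the cut receptor. It was 160.5 ± 23.4 CPM in H47_KO and 111 ± 13.3 in H47_Ctrl at 0 h, 134 ± 15.2 and 85.0 ± 12.5 at 6 h, 106 ± 12.6 and 75.0 ± 18.2 at 12 h, and 128 ± 26.7 and 85.5 ± 9.15 at 24 h (SD, n = 3). At each time all 3 H47_KO libraries lay above all 3 H47_Ctrl libraries, where 17.7%, 14.9%, 15.3% and 13.4% of all genes did not overlap. The share of genes apart at all 4 times was not counted. NCSTN was called at 0 of the 4 single times in the knockout. The averaged log2 fold change was 0.56 (SE 0.0891, adjusted p = 1.41e-04, edgeR), and it was called in all 32 settings counted. For averages the setting of only the compared libraries, counted among the 32, repeats the main fit and is no separate check. In the CRISPRa arm NCSTN was lower on average (-0.38, SE 0.0951, adjusted p = 0.00462), also in all 32 settings, the repeated main fit included. The difference there was at 0 h (104 ± 0.413 CPM in VP64_A and 189 ± 33.5 in VP64_Ctrl, log2 fold change -0.87, adjusted p = 0.00245), and the groups overlapped at 6, 12 and 24 h.

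In the CRISPRa arm 2 pathway genes were higher on average and 8 were lower, 10 of 36, where 18.4% of all genes were called. By time, 1 was higher and 7 were lower at 0 h, and 0 were called at 6 h. At 12 h 1 was higher, and at 24 h 1 was higher and 1 lower. The shares of all genes called were 9.41%, 3.76%, 4.31% and 4.13%. The 0 h contrast includes replicate 3 of VP64_Ctrl, a library that stood apart. Among the genes lower on average were NCSTN, the coactivator genes CREBBP, EP300 and MAML2 of the nuclear complex, and the corepressor genes NCOR1, SPEN and TLE4, so both activating and repressing partners of RBPJ were among them. TLE4, a Groucho-family corepressor that HES proteins recruit, had the lowest value (-0.77, SE 0.119, adjusted p = 9.75e-06), with 7.88 ± 0.895 CPM in VP64_A and 17.9 ± 1.82 in VP64_Ctrl at 24 h. The averages of CREBBP, EP300, MAML2, NCOR1 and SPEN ranged from -0.54 for MAML2 to -0.31 for NCOR1. At single times EP300 ranged from -0.81 to 0.16, MAML2 from -1.33 to 0.17 and SPEN from -0.86 to 0.09, so these genes were not lower throughout. RBPJ, the DNA-binding core of the pathway, was higher (0.39, SE 0.0765, adjusted p = 3.48e-04). It held 46.3 ± 3.91 CPM in VP64_A and 31.3 ± 6.66 in VP64_Ctrl at 12 h, and 48.7 ± 3.64 and 31.8 ± 1.93 at 24 h. ADAM10, the protease of the outer cut, was the other higher gene (0.38, adjusted p = 0.0479). That call held in 10 of 32 settings, the repeated main fit among the 10.

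**Figure D5:**
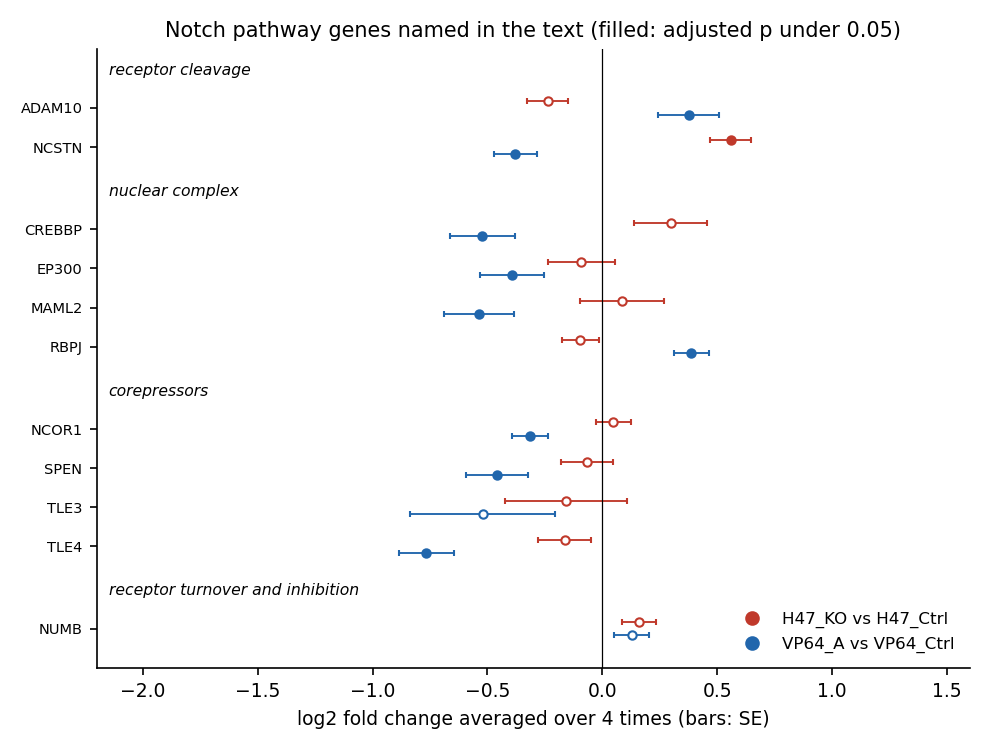
Log2 fold change averaged over the 4 times (horizontal axis) of the Notch pathway genes outside the set that are named in the text (vertical axis, by role) for H47_KO against H47_Ctrl (red) and VP64_A against VP64_Ctrl (blue); bars are SE and filled symbols have an adjusted p under 0.05 by edgeR. NCSTN is the only filled red symbol (0.56) and lies on the other side of 0 in blue (-0.38), and TLE4 is the lowest filled blue symbol (-0.77).

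Several pathway genes moved with time in all 4 groups. NUMB, an endocytic antagonist of Notch receptors, rose at 6 h by 1.14, 1.25, 1.42 and 1.27 (log2) in H47_Ctrl, H47_KO, VP64_Ctrl and VP64_A (adjusted p at most 6.53e-08, edgeR). TLE3, another Groucho-family corepressor, rose by 2.89, 2.16, 1.94 and 2.16 (adjusted p at most 0.0118), and TLE4 fell by 1.86, 1.83, 1.17 and 0.81 (adjusted p at most 0.0163). These genes were named after their time courses were seen. At 6 h 9 of 38 pathway genes were called in H47_Ctrl, 6 of 38 in H47_KO, 10 of 36 in VP64_Ctrl and 8 of 36 in VP64_A, shares of 23.7%, 15.8%, 27.8% and 22.2% beside the 15.9%, 23.9%, 28.8% and 17.4% of all genes. Groups of an arm, and all contrasts of a group with its own 0 h, share libraries.

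The genes whose course over the 16 conditions was most like that of DLL4, with each arm centered on its own mean, were FLT1 (Pearson r = 0.903), SNRPB2 (0.900), SEMA6D (0.884), MOB2 (0.876) and TMEM33 (0.872), of 10647 genes compared. Conditions share groups of cells and times, and r is given as a description. FLT1 encodes a receptor for VEGF. Its mean went from 18.2 CPM at 0 h to 69.3 at 12 h in H47_Ctrl, from 17.6 to 92.0 in H47_KO, from 13.2 to 36.1 in VP64_Ctrl and from 7.88 to 16.1 in VP64_A. FLT1 libraries of H47_KO lay above those of H47_Ctrl at 6, 12 and 24 h and overlapped them at 0 h (14.2 to 21.9 and 16.5 to 20.7 CPM). FLT1 libraries of VP64_A lay below those of VP64_Ctrl at all 4 times. The shares of all genes without overlap are given with DLL4 above. FLT1 was picked for its likeness to DLL4 over these same groups and times, so these differences follow from the choice and are a description only. Within the set NOTCH2 had r = 0.465 with DLL4, JAG1 -0.17 and NOTCH1 -0.27, and GLIS3 had -0.37.

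FLT1 is also one of 9 endothelial markers examined, so their levels stand beside those of DLL4. Their summed TPM ranged from 4.71 to 20.3 in H47_Ctrl, 4.44 to 25.7 in H47_KO, 4.17 to 12.9 in VP64_Ctrl and 2.43 to 5.25 in VP64_A. FLT1 made up most of it (median 5.70 TPM). Of the defining markers KDR was at 0 in all 48 libraries, CDH5 held 1 count in 1 library, CLDN5 at most 1 count in 2 libraries and PECAM1 at most 9 counts in 23 libraries. TIE1 was detected in 40 libraries with at most 18 counts, TEK in 30 with at most 57, VWF in 15 with at most 10 and ESAM in 13 with at most 4. The 5 epithelial markers summed to 21.3 to 100.7 TPM in VP64_A and 8.78 to 39.1 in VP64_Ctrl, mostly KRT8 and KRT14, with EPCAM at 0 throughout. Their part in the DLL4 difference was not tested. The 7 pericyte or smooth muscle markers summed to 36.7 to 102 TPM in H47_Ctrl, 44.5 to 182 in H47_KO, 12.3 to 54.3 in VP64_Ctrl and 19.2 to 52.6 in VP64_A, and the 5 immune markers, mostly CD68 with CD3E at 0, to 13.7 to 69.7 over all libraries. Leaving out the 3 libraries that stood apart gave DLL4 averages of 1.97 for the knockout and -2.27 for activation.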

How the data were processed

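RNA was extracted with Trizol and sequenced from Nextera XT libraries on a NextSeq 500, 3 libraries in each of 16 conditions. Per the authors, Trim Galore was used for trimming, SortMeRNA against ribosomal reads, STAR for alignment to GRCh38 and Salmon for quantification. Versions, annotation and counting strand are not given in the sources used here. The deposited estimated counts (6.38% not whole) were rounded for the tests, and the TPM deposited by the authors were used for comparison between genes. Totals ranged from 2321990 to 10661000 counts per library, and all columns matched a sample (0 unmatched). The 48 replicate pairs differed by more than sampling noise (smallest chi-square per degree of freedom 3.80), and 0 were identical.

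In each arm of 24 libraries, filterByExpr (minimum count 10, total 15) kept 10962 genes (CRISPRko) or 10980 (CRISPRa). TMM scaling and edgeR 4.0.16 quasi-likelihood tests in R 4.3.3 fitted 8 groups, two-sided, with Benjamini-Hochberg adjustment over all genes of the arm and a threshold of 0.05. Contrasts were group at each time, group averaged over 4 times, time against 0 h, and their difference. The SE beside edgeR values was the absolute log2 fold change divided by the square root of the F statistic. It was not fitted separately and can be unstable for changes near 0. Alternatives used DESeq2 1.42.0, its size factors, limma 3.58.1 on log2(TPM + 1) or log2(TPM + 0.1), no filter, only the libraries compared, a replicate block and each library left out. Scripts were tested on simulated data. The members and lists were chosen with earlier results of these data known. The text names all members, pathway genes called on average or at 2 or more times of an arm, the 5 genes most correlated with DLL4 (log2 CPM, prior count 2, mean CPM of at least 1), and genes said to be named after their values were seen. Some pathway genes that entered the tests and counts are not reported here. The authors' normalization for their own comparisons was not used here.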

Additional observations from a re-analysis of the deposited data

How the results depend on the processing

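Of the alternatives, the log2(TPM + 1) scale moved the most: it called 2 members in the H47_Ctrl course in place of 4, 0 in VP64_A in place of 3 and 4 between VP64_A and VP64_Ctrl in place of 2, and it gave DLL4 averages of 1.07 (knockout) and -1.10 (activation) in place of 1.83 and -2.19. The log2(TPM + 0.1) scale gave 1 call in the VP64_A course and 7 pathway calls in place of 11, and fitting only the compared libraries gave 1 call in the VP64_A course. Without the libraries of TMM factor over 1.5, chosen after the values were seen, 1 member was called between VP64_A and VP64_Ctrl. The cause was not tested, and the TPM scales moved the median of all genes by up to -0.81 (VP64_Ctrl at 6 h). Leaving out 1 library at a time gave 3 to 4 calls in the H47_Ctrl course, 3 to 6 in H47_KO, 6 to 7 in VP64_Ctrl, 1 to 4 in VP64_A, 1 to 3 between VP64_A and VP64_Ctrl, 0 between H47_KO and H47_Ctrl, 0 for the differences in response and 8 to 13 for the pathway genes, and DLL4 averages of 1.69 to 2.23 and -3.12 to -1.95. DLL4 at 0 h for VP64_A against VP64_Ctrl, -0.79 with all libraries, was 0.21 without replicate 2 of VP64_Ctrl and -4.47 without replicate 3 of VP64_A. With a replicate block the counts were 0, 4, 4, 7 and 2 (H47_KO against H47_Ctrl, then the H47_Ctrl, H47_KO, VP64_Ctrl and VP64_A courses), 2 between VP64_A and VP64_Ctrl and 12 pathway genes, with DLL4 averages of 1.85 and -2.21. Equal replicate numbers mark no shared source in the labels, and the deviations of same-numbered libraries correlated by -0.05 to 0.15 over 24 pairs, 5 of them over 0.1, so the block pairs libraries by number only. Counts of HES1, HEY2, HEYL, NRARP and HEY1 rarely exceeded 10, which limits what can be said of them. The cause of these low counts was not tested.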
